A study of Homo sapiens with 24 samples.

Results

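The DNA replication machinery was followed as 47 genes in the established human acute myeloid leukemia (AML) lines MV4-11 and KG-1a after treatment with 8CA (8-chloro-adenosine) or 8AA (8-amino-adenosine). The members were found by their symbols, and all 47 of them were among the 23354 genes of the count table. Both compounds are analogs of the ribonucleoside adenosine that carry a chlorine atom or an amino group at the same position of the base. Each line was left untreated or was given 1 μM of 1 compound, with RNA taken at 8 h or 24 h. This gave 12 groups of 2 libraries, named A and B, and 24 libraries in all. The labels give the genotype as WT for every group and the same medium with fetal bovine serum, and for untreated cells they give the hours in the titles only. MV4-11 carries a KMT2A rearrangement and KG-1a does not, so each line is 1 leukemia and the lines differ in far more than that lesion. The labels do not say whether libraries A and B came from separate cultures, so the p-values measure the spread between these libraries, which may be technical. RNA was taken from whole cultures, in which fewer cells in S phase and less RNA per cell cannot be told apart.

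Replication starts when the origin recognition complex, with CDC6 and CDT1, loads the MCM helicase onto DNA in G1, a step called licensing that geminin (GMNN) blocks later in the cycle. In S phase the kinase CDC7 with DBF4, together with MCM10, CDC45 and the GINS complex, turns the loaded MCM ring into a moving helicase. Primase and polymerase alpha then lay down primers, replication factor C (RFC) loads the sliding clamp PCNA, polymerases delta and epsilon copy the strands, RPA coats the single strands, and FEN1 and ligase 1 (LIG1) finish the Okazaki fragments of the lagging strand. Many of these genes are known targets of the E2F transcription factors, which rise at the passage from G1 to S phase.

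The promoters of 40 of the 47 members were found in RefSeq (assembly GRCh38.p14), each as a window of 300 bases from 250 before to 50 after the start of the gene. A single start was taken per gene. In 33 of the 40, bases 11 to 40 after it were found in a GENCODE release 29 transcript of that gene on the same strand. E2F-type words were searched as TTTGGCGC, TTTCGCGC, TTTCCCGC and TTTGCCGC on either strand, and overlapping words were counted as 1 site. At least 1 of these words stood in 18 of the 40 member promoters (45.0%), against 3.33% of 27305 promoters of the same length and 4.29% of the 15557 whose gene is in the count table. CCAAT stood in 60.0% of member promoters against 35.7% of all and 36.2% of those in the count table, and GGGCGG in 75.0% against 44.6% and 57.9%. TATAAA stood in 2.5% against 11.95% and 9.40%, and TTTGAA in 2.5% against 15.4% and 12.2%. A match is a description of letters and not of a bound factor. A pair of sites was found in MCM3, MCM6 and MCM7, subunits of the helicase ring. These are shown with PCNA and GINS2, which held 1 site each, and with FEN1, which held none and had the largest fall of all members. Each sequence runs 5′ to 3′ on the strand of its gene, from 200 bases before to 30 after the start, with the words in capitals.
MCM3: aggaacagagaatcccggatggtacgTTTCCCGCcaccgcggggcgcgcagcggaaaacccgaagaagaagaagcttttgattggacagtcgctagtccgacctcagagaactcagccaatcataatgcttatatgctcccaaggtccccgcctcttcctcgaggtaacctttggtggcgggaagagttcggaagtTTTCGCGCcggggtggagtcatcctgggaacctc
MCM6: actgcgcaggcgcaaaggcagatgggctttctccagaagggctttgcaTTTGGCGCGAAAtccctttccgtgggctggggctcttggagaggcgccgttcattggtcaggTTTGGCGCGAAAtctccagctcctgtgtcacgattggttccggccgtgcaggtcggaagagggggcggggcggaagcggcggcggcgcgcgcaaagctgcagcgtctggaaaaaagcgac
MCM7: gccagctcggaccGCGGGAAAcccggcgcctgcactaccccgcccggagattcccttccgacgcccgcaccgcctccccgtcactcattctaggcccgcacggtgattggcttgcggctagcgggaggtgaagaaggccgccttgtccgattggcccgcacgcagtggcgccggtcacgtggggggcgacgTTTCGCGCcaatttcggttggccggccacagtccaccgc
PCNA: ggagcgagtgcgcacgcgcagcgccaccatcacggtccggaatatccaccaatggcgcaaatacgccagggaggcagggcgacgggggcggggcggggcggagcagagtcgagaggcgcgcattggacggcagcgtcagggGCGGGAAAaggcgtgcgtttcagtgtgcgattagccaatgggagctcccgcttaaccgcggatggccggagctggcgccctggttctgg
GINS2: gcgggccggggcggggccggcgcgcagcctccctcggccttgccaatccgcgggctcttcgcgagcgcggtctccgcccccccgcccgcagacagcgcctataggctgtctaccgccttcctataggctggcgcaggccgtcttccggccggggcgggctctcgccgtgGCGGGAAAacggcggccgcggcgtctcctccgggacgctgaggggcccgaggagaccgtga
FEN1: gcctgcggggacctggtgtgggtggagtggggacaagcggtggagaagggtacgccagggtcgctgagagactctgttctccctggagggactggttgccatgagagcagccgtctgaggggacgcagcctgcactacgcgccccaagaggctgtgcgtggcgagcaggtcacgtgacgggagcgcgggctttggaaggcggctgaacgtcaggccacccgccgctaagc
The windows lie, in GRCh38.p14, at chr6:52284713-52284942 (MCM3, minus strand), chr2:135876414-135876643 (MCM6, minus strand), chr7:100101368-100101597 (MCM7, minus strand), chr20:5126593-5126822 (PCNA, minus strand), chr16:85688925-85689154 (GINS2, minus strand) and chr11:61792711-61792940 (FEN1, plus strand). Of the 30 members that fell with 8CA at 24 h in both lines, 25 had a promoter in the table and 13 held a word, and of the other 17 members 15 had a promoter and 5 held a word.

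The libraries held between 18633963 and 24520078 counts, and no member had fewer than 326 counts in any library. Levels are in CPM, that is counts put on a common library size, after scaling by the trimmed mean of M-values (TMM) within each line. Log2 fold changes are given ± the standard error, with the p-value of edgeR's quasi-likelihood test adjusted over all genes tested, and a member was called lower or higher at an adjusted p below 0.05. Of the leukocyte genes, PTPRC and SPN were present in both lines, while CD33 was at 105 to 141 CPM in MV4-11 and at 0.352 to 1.02 CPM in KG-1a. MV4-11 expressed FLT3, MEIS1 and LYZ, and KG-1a expressed the progenitor marker CD34 at 325 to 629 CPM. HOXA9, listed with FLT3 and MEIS1, was lower in MV4-11 (7.11 to 9.40 CPM) than in KG-1a (22.3 to 27.8 CPM). So was ITGAM, listed with LYZ (1.59 to 4.09 against 8.01 to 13.7 CPM). Also listed with LYZ, MPO reached 13.0 and CD14 0.261 CPM in MV4-11, against 2.16 and 0.660 CPM in KG-1a. KIT, listed with CD34, was at 2.55 to 6.58 CPM in MV4-11 and 3.39 to 7.21 CPM in KG-1a. The T-cell genes CD3D and CD3E were at 174 to 264 and 22.2 to 78.3 CPM in KG-1a and at 0 in MV4-11, while MS4A1, HBA1, EPCAM and KRT19 were at 0 in every library. The paired libraries of KG-1a with 8AA at 24 h stood apart from each other, with a chi-square per degree of freedom of 12.3 against 1.43 to 5.20 for the other 11 pairs. Results that rest on them are given with and without each of these libraries, and a tested value of a gene with 8AA in KG-1a at 24 h, or in a comparison that holds these libraries, is followed by its log2 values without library A and without library B. Standard errors and p-values pool the spread over all libraries of a fit, so those that involve this pair may be too small. The members' median standard error in KG-1a at 24 h was 0.0575 with 8AA, against 0.0582 with 8CA.

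At 24 h the replication genes fell together in MV4-11. With 8CA, 42 of the 47 members were lower than in untreated cells and 0 were higher (0 also at an unadjusted p under 0.05, and 0 by DESeq2), against 22.7% and 21.2% of the 12800 genes tested. The median log2 fold change of the members was −0.46, that of all genes 0.0022, and the members ran from −0.81 (FEN1) to 0.08 (CDT1). With 8AA, 45 members were lower and 0 higher by edgeR (0 at an unadjusted p under 0.05, 0 by DESeq2), against 15.3% and 13.9% of all genes, with a median of −0.36 against 0.0032 and a range from −0.49 (MCM10) to −0.13 (POLD2). The comparisons of 8CA and 8AA with untreated cells share the untreated libraries. Scaled by library size only, 18.2% of all genes were lower and 26.2% higher with 8CA, and 10.9% and 19.2% with 8AA, while 41 and 40 members were lower and 1 and 0 higher. The members took 0.772 to 0.790% of all counts in untreated MV4-11 libraries at 24 h, 0.581 to 0.591% after 8CA and 0.628 to 0.637% after 8AA.

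In KG-1a at 24 h fewer members fell. With 8CA, 30 members were lower and 2 higher, CDT1 and RFC1, against 24% and 23.4% of the 12711 genes tested, and the median was −0.22 against 0.0065 for all genes. Of these 32 calls, those of CHAF1B, DBF4, MCM10, MCM7, MCM8, POLD3, RNASEH2A and TIMELESS were lost without at least 1 library. With 8AA, 27 members were lower and 3 higher, CDT1, CDC7 and RFC5, against 26.6% and 25.4% of all genes, and the median was −0.16 against 0.013. The count with 8AA was 29 lower and 3 higher without library A of that group and 23 and 3 without library B, with medians of −0.22 and −0.13. Scaled by library size only, 16 members were lower and 6 higher with 8AA, with 19.6% and 35.6% of all genes lower and higher, and by the upper quartile 18 and 6, with 21.0% and 33.2%. By library size only the median of all genes moved to 0.11. The median of the members was 0.17 below that of all genes. A scaling shifts all genes alike, so this distance could not change with it and is no check of the counts. In the fit of the 4 libraries compared alone, 16 members were lower and 1 higher with 8AA, and 13 of the 30 calls were lost. Among the roles, the counts lower without library A and without library B were 6 and 5 for the MCM ring, 4 and 2 for polymerases delta and epsilon and 2 and 0 for the maturation of Okazaki fragments. Of the 30 calls with 8AA, 11 were lost without at least 1 of the 4 libraries compared and 0 changed sign. The same 30 members that were lower with 8CA in KG-1a were lower with 8CA in MV4-11, and 26 members were lower with 8AA in both lines. The share of all genes lower in both lines was not computed, so these joint counts have no background beside them. Of these 26, CHAF1B, GINS4, MCM5, MCM7, PCNA, POLA2, POLD1, POLD3 and RFC3 were among the 11 whose KG-1a call was lost. The MV4-11 calls of DBF4, POLD1, POLD3, POLE2 and RFC3 with 8AA were also lost without at least 1 library.

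**Figure D1:**
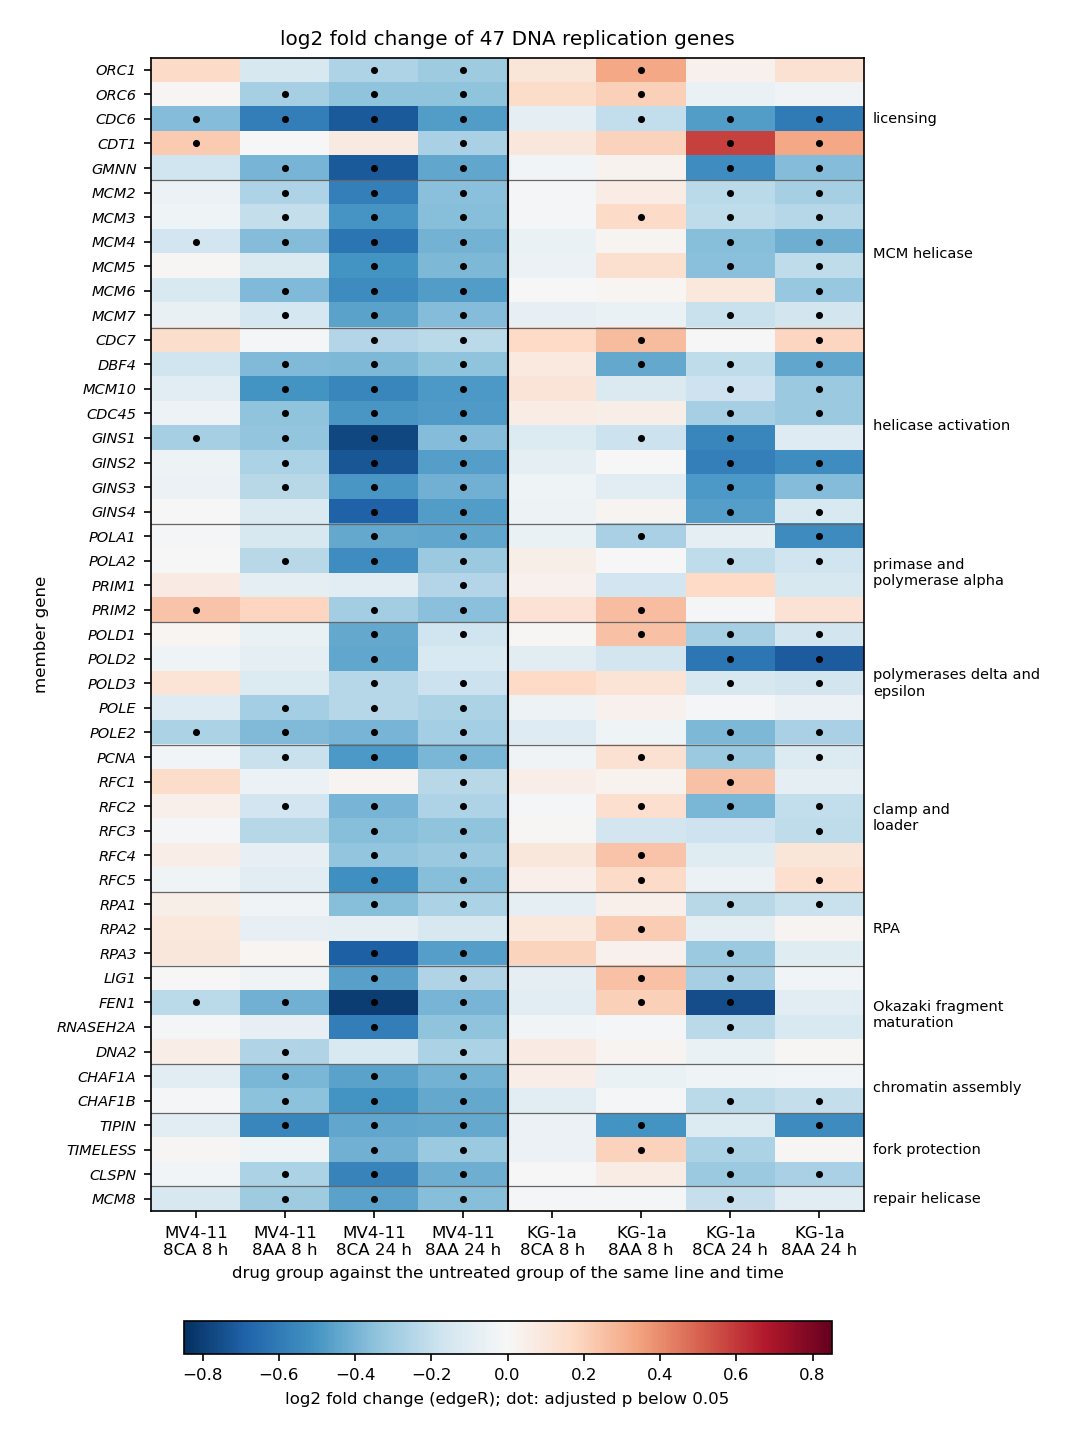
Heat map of the log2 fold change (edgeR) of the 47 members, 1 row per gene grouped by role, in each drug group against the untreated group of its line and time (columns); blue to red shows lower to higher, and a dot marks an adjusted p below 0.05. The 24 h columns of MV4-11 hold 42 and 45 dots, all for lower genes, while the 8CA 8 h column of KG-1a holds 0.

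Among the licensing genes, which prepare origins in G1, 4 of 5 fell with 8CA and 5 of 5 with 8AA in MV4-11, and 2 of 5 fell and 1 rose with each drug in KG-1a. Geminin, the inhibitor that binds CDT1, gave the largest change of the group. GMNN stood in MV4-11 at 24 h at 63.9 and 66.6 CPM in untreated libraries, 40.1 and 39.5 after 8CA and 47.2 and 48.9 after 8AA. All 3 groups were apart from each other, with 8CA lowest. The log2 fold change was −0.71 ± 0.063 (adjusted p = 4.24e-07) with 8CA and −0.44 ± 0.063 (adjusted p = 9.95e-05) with 8AA. In KG-1a GMNN was at 92.6 and 90.1 CPM untreated, 62.2 and 64.9 after 8CA and 71.3 and 70.4 after 8AA. The order of the groups was that of MV4-11, again without overlap, and the changes were −0.53 ± 0.051 (adjusted p = 9.12e-07) and −0.37 ± 0.051 (adjusted p = 1.94e-05, −0.38 and −0.36 without A and B). CDC6, the loader ATPase, changed by −0.71 and −0.48 on the log2 scale in MV4-11 and by −0.48 and −0.60 in KG-1a (8CA and 8AA in that order), all 4 past the threshold. Without 8AA library A and B the last value was −0.72 and −0.50.

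CDT1, the licensing factor itself, went another way. In KG-1a at 24 h CDT1 was at 94.8 and 96.2 CPM untreated, 151 and 135 after 8CA and 129 and 111 after 8AA. Every treated library was above both untreated ones. The log2 changes were 0.58 ± 0.072 (adjusted p = 9.47e-06) and 0.33 ± 0.073 (adjusted p = 0.00128, 0.21 and 0.43 without A and B), and CDT1 was one of the few members to rise. In MV4-11 the levels were 158 and 152 CPM untreated, 155 and 171 after 8CA and 123 and 132 after 8AA. The 8CA libraries overlapped the untreated ones (0.08 ± 0.054, adjusted p = 0.266), and those with 8AA lay below them (−0.28 ± 0.054, adjusted p = 0.00128). ORC1 and ORC6, subunits of the origin recognition complex, fell with both drugs in MV4-11 (ORC1 −0.26 and −0.30, ORC6 −0.34 and −0.34), and in KG-1a their values were 0.04 and 0.13 for ORC1 and −0.05 and −0.03 for ORC6, none of these 4 past the threshold. Without 8AA library A and B the values were 0.01 and 0.23 for ORC1, which passed as higher without B, and −0.04 and −0.03 for ORC6.

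The MCM ring, the helicase that unwinds DNA at the fork, fell nearly as a whole. All 6 subunits were lower with each drug in MV4-11 and with 8AA in KG-1a, and 5 of 6 with 8CA in KG-1a. In KG-1a the calls of MCM5 and MCM7 with 8AA, and that of MCM7 with 8CA, were lost without at least 1 library. MCM4, the subunit with the largest change, was in MV4-11 at 24 h at 1115 and 1101 CPM untreated, 715 and 726 after 8CA and 834 and 845 after 8AA. Groups were separate, and the change was −0.62 ± 0.041 (adjusted p = 2.07e-08) and −0.40 ± 0.041 (adjusted p = 6.15e-06). In KG-1a MCM4 was at 1143 and 1163 CPM untreated, 904 and 889 after 8CA and 892 and 835 after 8AA. Here the drug groups overlapped each other and both were below untreated cells (−0.36 ± 0.044, adjusted p = 7.81e-06 and −0.42 ± 0.044, adjusted p = 1.28e-06, −0.47 and −0.37 without A and B).

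MCM2 followed the same course as its partner. It was at 481 and 483 CPM in untreated MV4-11, 309.9 and 334 after 8CA and 362 and 390.5 after 8AA, with changes of −0.58 ± 0.054 (adjusted p = 7.54e-07) and −0.36 ± 0.054 (adjusted p = 0.000173). In KG-1a the levels were 569.8 and 589 CPM, 504 and 485 and 509 and 444. Both drug groups were below the untreated one there, with smaller changes of −0.23 ± 0.055 (adjusted p = 0.00305) and −0.28 ± 0.055 (adjusted p = 0.000487, −0.39 and −0.19 without A and B). The exception of the ring was MCM6 in KG-1a with 8CA, at 455 and 447 CPM against 427 and 421 CPM untreated (0.09 ± 0.047, adjusted p = 0.127). With 8AA in the same line MCM6 was at 352 and 326 CPM and fell (−0.32 ± 0.047, adjusted p = 3.27e-05, −0.38 and −0.27 without A and B), as it did in MV4-11 with 8CA (−0.54) and with 8AA (−0.47). MCM8, a relative of the ring that acts in recombination rather than in the ring itself, was at 78.2 and 77.2 CPM in untreated MV4-11, 56.5 and 56.7 after 8CA and 61.2 and 59.6 after 8AA (−0.46 and −0.36, both past the threshold). In KG-1a it was at 102 and 102 CPM untreated, 87.8 and 90.1 with 8CA, where it fell (−0.20 ± 0.063, adjusted p = 0.017, a call lost without 1 library), and 88.3 and 103 with 8AA, where the groups overlapped (−0.09 ± 0.062, adjusted p = 0.227, 0.02 and −0.21 without A and B).

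The genes that activate the helicase also fell in most comparisons at 24 h. All 8 were lower with each drug in MV4-11, 7 with 8CA in KG-1a, and 6 with 8AA in KG-1a, where CDC7 was higher. GINS1, a subunit of the GINS complex that joins MCM to the polymerases, was in MV4-11 at 66.1 and 68.4 CPM untreated, 40.7 and 38.0 after 8CA and 54.9 and 49.1 after 8AA. The 3 groups did not overlap, and the change with 8CA (−0.77 ± 0.068, adjusted p = 3.88e-07) was larger than with 8AA (−0.37 ± 0.067, adjusted p = 0.000662). In KG-1a GINS1 was at 94.1 and 92.2 CPM untreated, 63.4 and 63.8 after 8CA and 85.1 and 87.6 after 8AA. It fell with 8CA (−0.55 ± 0.055, adjusted p = 1.14e-06), and with 8AA both libraries lay below the untreated ones by an amount that missed the threshold (−0.11 ± 0.054, adjusted p = 0.0979, −0.09 and −0.13 without A and B). The other GINS subunits changed by −0.73 (GINS2), −0.49 (GINS3) and −0.69 (GINS4) with 8CA in MV4-11, all past the threshold.

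CDC7, the catalytic kinase subunit, was among the weakest changes. It stood in MV4-11 at 67.0 and 66.5 CPM untreated, 58.1 and 53.9 after 8CA and 58.5 and 55.1 after 8AA, below untreated cells in each treated library (−0.25 ± 0.082, adjusted p = 0.0213 and −0.23 ± 0.083, adjusted p = 0.0462). Both of these calls were lost when 1 library was left out. In KG-1a CDC7 was at 81.4 and 78.8 CPM untreated, 80.4 and 79.9 after 8CA and 83.9 and 98.2 after 8AA, which gave 0.00 ± 0.064 (adjusted p = 0.991) and 0.18 ± 0.063 (adjusted p = 0.0243, 0.29 and 0.06 without A and B). Library B with 8AA stood higher than library A, and this call too was lost when library B was left out. DBF4, its activating subunit, fell with 8AA in KG-1a (−0.44 ± 0.072, adjusted p = 9.42e-05, −0.32 and −0.58 without A and B). The values of the kinase and its activator had opposite signs there, though that of CDC7 was only 0.06 without library B.

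Primase and polymerase alpha, which start each strand, were the least uniform of the polymerases. Of the 4 subunits, 3 and 4 fell with 8CA and 8AA in MV4-11, and 1 and 2 in KG-1a. POLA1, the catalytic subunit, was in KG-1a at 125 and 128 CPM untreated, 121 and 119 after 8CA and 84.9 and 89.7 after 8AA. The 8AA libraries were far below the rest (−0.54 ± 0.051, adjusted p = 4.31e-07, −0.50 and −0.58 without A and B), and the change with 8CA was small (−0.08 ± 0.050, adjusted p = 0.22). In MV4-11 POLA1 was at 114 and 106 CPM untreated, 83.2 and 79.8 after 8CA and 78.7 and 83.7 after 8AA, below untreated cells with either drug (−0.44 ± 0.056, adjusted p = 1.77e-05 and −0.44 ± 0.056, adjusted p = 3.97e-05). The primase subunit PRIM1 passed the threshold only with 8AA in MV4-11 (−0.25 ± 0.055, adjusted p = 0.00321) of the 4 comparisons at 24 h.

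Of the 5 subunits of polymerases delta and epsilon, which copy most of the genome, all 5 fell with 8CA in MV4-11 and 4 in each of the other 3 comparisons. POLD2, a small subunit of polymerase delta, had its largest fall in KG-1a. It stood there at 162 and 176 CPM untreated, 112 and 108 after 8CA and 110.1 and 96.4 after 8AA. Treated and untreated libraries were well apart, with changes of −0.61 ± 0.062 (adjusted p = 1.24e-06) and −0.71 ± 0.062 (adjusted p = 1.85e-07, −0.81 and −0.62 without A and B). In MV4-11 POLD2 was at 161 and 155 CPM untreated, 114 and 119 after 8CA and 141 and 148 after 8AA. It fell with 8CA (−0.44 ± 0.054, adjusted p = 1.3e-05), and with 8AA its change missed the threshold (−0.13 ± 0.054, adjusted p = 0.0776). POLE, the catalytic subunit of polymerase epsilon, fell in MV4-11 (−0.25 and −0.27) and was at −0.01 and −0.05 in KG-1a (−0.04 and −0.07 for 8AA without A and B), past the threshold with neither drug.

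PCNA, the ring that holds the polymerases on DNA, fell with each drug in each line at 24 h, and the loader subunits did not do so together. In MV4-11 PCNA was at 402 and 394 CPM untreated, 279.6 and 287 after 8CA and 297 and 312 after 8AA. All treated libraries were below both untreated ones (−0.49 ± 0.040, adjusted p = 1.87e-07 and −0.39 ± 0.040, adjusted p = 7.78e-06). In KG-1a the levels were 284 and 285 CPM untreated, 228 and 229 after 8CA and 274 and 249 after 8AA. The fall with 8CA was clear (−0.32 ± 0.047, adjusted p = 5.63e-05), while that with 8AA was near the threshold (−0.12 ± 0.047, adjusted p = 0.0442, −0.19 and −0.05 without A and B) and was lost without 1 library or under another scaling.

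Within replication factor C, RFC5 and RFC1 each fell with a drug in MV4-11 and rose with one in KG-1a. RFC5, a small loader subunit, was at 67.2 and 71.4 CPM in untreated MV4-11, 47.8 and 48.7 after 8CA and 55.3 and 52.6 after 8AA, and fell (−0.52 ± 0.055, adjusted p = 2.52e-06 and −0.36 ± 0.055, adjusted p = 0.000169). In KG-1a it was at 83.5 and 82.0 CPM untreated, 80.6 and 79.6 after 8CA and 88.9 and 94.2 after 8AA. The 8AA libraries stood above the untreated ones (0.14 ± 0.050, adjusted p = 0.0237, 0.18 and 0.10 without A and B, a call lost without 1 library), and the change with 8CA missed the threshold (−0.05 ± 0.051, adjusted p = 0.478). RFC1, the large loader subunit, was in KG-1a at 219.9 and 212 CPM untreated, 256 and 257 after 8CA and 211 and 197 after 8AA. It rose with 8CA (0.25 ± 0.048, adjusted p = 0.000539), with no overlap, and its libraries with 8AA lay below the untreated ones without passing the threshold (−0.08 ± 0.048, adjusted p = 0.181, −0.13 and −0.03 without A and B). In MV4-11 RFC1 was at 147 and 147 CPM untreated, 149.7 and 148 after 8CA and 119 and 130.0 after 8AA, and fell only with the latter (0.02 ± 0.049, adjusted p = 0.76 and −0.24 ± 0.049, adjusted p = 0.00215).

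RPA3, the smallest subunit of the single-strand binding protein RPA, was in MV4-11 at 33.4 and 34.5 CPM untreated, 20.3 and 21.8 after 8CA and 24.1 and 24.9 after 8AA. The groups were separate, with changes of −0.69 ± 0.071 (adjusted p = 2.21e-06) and −0.47 ± 0.071 (adjusted p = 0.00017). In KG-1a it was at 29.4 and 27.2 CPM untreated, 23.3 and 22.2 after 8CA and 26.8 and 26.0 after 8AA, and fell with 8CA (−0.32 ± 0.080, adjusted p = 0.00409) but not past the threshold with 8AA (−0.10 ± 0.078, adjusted p = 0.289, −0.13 and −0.08 without A and B). The partner subunit RPA2 was called in none of the 4 comparisons at 24 h by edgeR, with log2 values from −0.14 to 0.03, the latter −0.08 and 0.11 without A and B. RPA3 overlaps the gene UMAD1, and the sources used here do not give the strand setting of the counting, so reads of the pair may have been shared. The same holds for MCM7 with AP4M1, RFC4 with EIF4A2, DBF4 with SLC25A40 and PCNA with PCNA-AS1. POLE2 and NEMF overlap on the same strand, so their reads may have been shared under any strand setting.

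FEN1, the nuclease that trims the flaps of Okazaki fragments, had the largest fall of all 47 members. In MV4-11 it was at 200.4 and 199 CPM untreated, 112 and 116 after 8CA and 148 and 157 after 8AA. The 3 groups were well separated, and 8CA left FEN1 at 57.0% of the untreated level (−0.81 ± 0.050, adjusted p = 1.28e-08) and 8AA at 76.1% (−0.39 ± 0.050, adjusted p = 3.83e-05). In KG-1a FEN1 was at 367 and 376 CPM untreated, 221 and 219 after 8CA and 375 and 323 after 8AA. The 8CA libraries were at 59.3% of untreated (−0.75 ± 0.058, adjusted p = 6.74e-08), whereas 1 library with 8AA was within the untreated range and 1 below it (−0.09 ± 0.057, adjusted p = 0.209, −0.20 and 0.01 without A and B). Of the 4 genes of fragment maturation, 3 fell with 8CA in each line and 4 with 8AA in MV4-11. With 8AA in KG-1a all 4 missed the threshold, with values from −0.13 (RNASEH2A, a subunit of the nuclease that removes RNA primers) to 0.01 (the nuclease DNA2). Without A and B, RNASEH2A was at −0.24 and −0.04 and DNA2 at 0.12 and −0.11, and FEN1 and RNASEH2A passed as lower without A. LIG1, which seals the nicks, was among those lower with 8CA in both lines (−0.46 and −0.28) and was at −0.02 ± 0.051 (adjusted p = 0.742, −0.08 and 0.03 without A and B) with 8AA in KG-1a. Pseudogenes are named after FEN1, DBF4, POLD2, PCNA, RFC3, RFC5 and RPA2, so reads may have been split between these members and their copies.

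Chromatin assembly and fork protection completed the set. CHAF1B, a subunit of the histone chaperone CAF-1 that travels with PCNA, was in MV4-11 at 51.9 and 50.2 CPM untreated, 35.6 and 36.1 after 8CA and 36.8 and 38.7 after 8AA (−0.51 ± 0.055, adjusted p = 3.54e-06 and −0.44 ± 0.055, adjusted p = 3.9e-05). In KG-1a it was at 58.5 and 57.8 CPM untreated, 49.6 and 49.6 after 8CA and 54.2 and 46.5 after 8AA, and fell less (−0.23 ± 0.069, adjusted p = 0.0123 and −0.20 ± 0.068, adjusted p = 0.0199, −0.32 and −0.10 without A and B). No treated library reached an untreated one in either line, though both KG-1a calls were lost without 1 library. Claspin (CLSPN), a fork protein that also carries the checkpoint signal from ATR to CHK1, was in MV4-11 at 115 and 114 CPM untreated, 76.3 and 78.3 after 8CA and 86.4 and 85.1 after 8AA (−0.57 ± 0.046, adjusted p = 1.82e-07 and −0.42 ± 0.046, adjusted p = 1.22e-05). In KG-1a CLSPN was at 181 and 179 CPM, 151 and 138 and 151 and 147 in the same order (−0.32 ± 0.048, adjusted p = 5.74e-05 and −0.27 ± 0.047, adjusted p = 0.00017, −0.30 and −0.25 without A and B). Untreated libraries were above all treated ones in each line, and in KG-1a the drug groups overlapped. TIPIN, the partner of TIMELESS at the fork, fell in MV4-11 with each drug (−0.44 and −0.43) and in KG-1a with 8AA (−0.53 ± 0.081, adjusted p = 5.18e-05, −0.66 and −0.43 without A and B), and was at −0.11 ± 0.079 (adjusted p = 0.249) with 8CA in KG-1a.

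**Figure D2:**
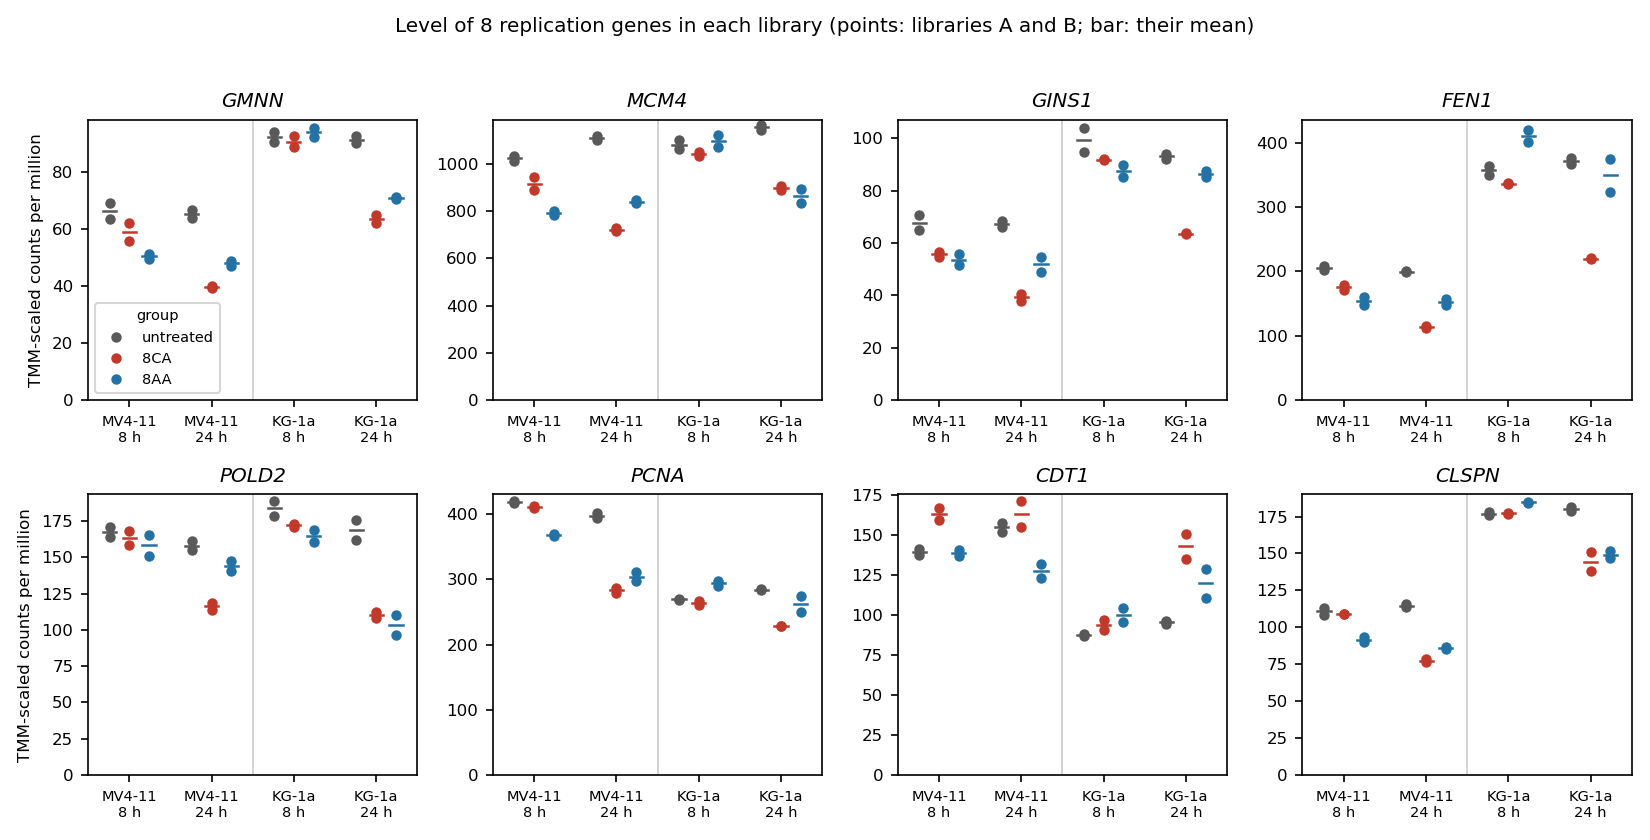
Level of 8 members in every library, in TMM-scaled CPM on an axis from 0, by line and time; each point is 1 library, coloured by group, and the bar is the mean of the pair. GMNN, MCM4 and FEN1 drop at 24 h in MV4-11, FEN1 with 8CA is at 221 and 219 CPM in KG-1a while 8AA stays at 375 and 323 CPM, and CDT1 stands higher with both drugs in KG-1a.

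At 8 h the drugs and the lines parted. In MV4-11, 8AA had already lowered 26 members and raised 0 (1 at an unadjusted p under 0.05, 0 by DESeq2), against 15.6% and 13.6% of all genes, with a median of −0.20 against 0.0057. All 26 were also lower at 24 h with 8AA. The share of all genes lower at both times was not computed for either drug. With 8CA, 5 members were lower and 2 higher, against 5.77% and 4.58% of all genes, and the median of −0.016 turned to 0.014 when scaled by library size only and to 0.0075 by the upper quartile. Scaled by library size only, 22 members were lower and 1 higher with 8AA beside 11.8% and 18.7% of all genes, and 4 were lower and 4 higher with 8CA beside 4.16% and 6.70%. The 5 that fell with 8CA at 8 h were CDC6, MCM4, GINS1, POLE2 and FEN1, and all of them were lower at 24 h. CDC6 alone of these 7 kept its call without each library in turn. Leaving out 1 of the 4 libraries compared left 3 (without untreated A or 8CA B) or 4 lower and 0 higher, or 1 higher without 8CA A.

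CDC6 had the largest fall at 8 h in MV4-11 with each drug. It was at 95.4 and 96.5 CPM untreated, 73.1 and 75.6 after 8CA and 62.1 and 65.3 after 8AA. The 3 groups did not overlap, and the changes were −0.37 ± 0.050 (adjusted p = 0.00042) and −0.59 ± 0.050 (adjusted p = 1.28e-06). TIPIN was at 31.7 and 33.7 CPM untreated, 31.7 and 29.7 after 8CA and 23.1 and 21.5 after 8AA, and fell with 8AA alone (−0.09 ± 0.068, adjusted p = 0.454 and −0.55 ± 0.070, adjusted p = 3.65e-05). MCM10, which helps to start the helicase, was at −0.10 with 8CA and −0.51 ± 0.060 (adjusted p = 1.67e-05) with 8AA. By role, 5 of the 6 MCM subunits and 6 of the 8 helicase activators were already lower with 8AA at 8 h in MV4-11, against 1 of each with 8CA. MCM4 was at 1011 and 1034 CPM untreated, 887 and 941 after 8CA and 784 and 798 after 8AA, stepwise and without overlap (−0.16 ± 0.040, adjusted p = 0.0198 and −0.37 ± 0.041, adjusted p = 9.92e-06). The 2 members that rose with 8CA were CDT1 (141 and 138 CPM untreated, 159.6 and 167 with 8CA, 0.22 ± 0.054, adjusted p = 0.016) and the primase subunit PRIM2 (0.24 ± 0.068, adjusted p = 0.0321), and PRIM2 was lower at 24 h (−0.29 ± 0.068, adjusted p = 0.00238).

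In KG-1a at 8 h, 8CA changed 0 members in either direction by edgeR (0 lower and 5 higher at an unadjusted p under 0.05, 0 and 0 by DESeq2), against 0.181% and 0.7% of all genes, with a median of −0.0095, or 0.0025 when scaled by library size only. With 8AA, 5 members were lower and 14 higher, against 18% and 16.7% of all genes, and the median was 0.029 against 0.0072. By the Wald test of DESeq2 the counts were 5 lower and 9 higher. Without untreated library B, 8AA library A or 8AA library B, 6, 8 and 7 members were higher, and 12 without untreated library A. Scaled by library size only, 4 members were lower and 17 higher beside 15.1% and 21.0% of all genes, and with the size factors of DESeq2 7 and 12 beside 19.1% and 15.4%.

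The 14 members that rose with 8AA in KG-1a at 8 h included FEN1, at 364 and 349 CPM untreated, 337 and 335 after 8CA and 420.1 and 401 after 8AA (0.20 ± 0.057, adjusted p = 0.0114). They also included ORC1 (0.33), CDC7 (0.27), PRIM2 (0.27), POLD1 (0.25), LIG1 (0.25), RFC5 (0.16) and PCNA (0.13 ± 0.047, adjusted p = 0.0458). Of all 19 calls, 12 were lost without at least 1 library, those of FEN1, POLD1, RFC5 and PCNA among them. Of the genes that rose, ORC1, CDC7, PRIM2 and LIG1 were not among those lost. No share of all genes was computed for the fits without 1 library. FEN1 stood above the untreated libraries in KG-1a and below them in MV4-11 (202 and 208 CPM untreated, 148 and 161 with 8AA, −0.41 ± 0.050, adjusted p = 2.49e-05) at the same dose and time. Of the 14, MCM3, POLD1, PCNA and RFC2 were lower than untreated at 24 h, and CDC7 and RFC5 were higher at both times. The 8 h calls of MCM3, POLD1, PCNA and RFC2 were each lost without at least 1 library. At 24 h those of POLD1, PCNA, CDC7 and RFC5 were lost in this way, and those of POLD1, PCNA and RFC2 under another scaling. The 5 that fell were CDC6, DBF4, GINS1, POLA1 and TIPIN. TIPIN was at 26.2 and 27.6 CPM untreated and 19.2 and 18.6 with 8AA (−0.51 ± 0.079, adjusted p = 0.000149), a fall close in size to that in MV4-11. DBF4 was at 90.7 and 98.4 CPM untreated, 99.2 and 101 after 8CA and 68.5 and 71.7 after 8AA (−0.43 ± 0.071, adjusted p = 0.000246), with the 8AA libraries well below the rest.

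The compounds, which differ in the chlorine or amino group on the base, were compared directly at the same dose in 4 tests, 2 lines by 2 times, each adjusted over all genes. In MV4-11 the median difference was below 0 at 8 h and above 0 at 24 h, and the change of the difference between the times was not itself tested. At 8 h all 47 members had a lower value with 8AA than with 8CA, 24 past the threshold and 0 in the other direction (0 at an unadjusted p under 0.05, 18 in all by DESeq2), against 3.7% and 2.96% of all genes, with a median difference of −0.18. At 24 h, 2 members were lower with 8AA and 15 higher, against 9.48% and 11.7% of all genes, with a median of 0.093. The 8 members CDC6, GMNN, MCM2, MCM4, GINS2, POLA2, FEN1 and CLSPN were below 8CA at 8 h and above it at 24 h, each past the threshold at both times, and CDT1 and RFC1 were below at both. The share of all genes that did so was not computed. Which of these calls held without each library was not recorded. The counts called at 8 h and at 24 h both moved with 1 library. At 8 h, 14 and 8 members passed without 8CA library A or B and 11 without either 8AA library. At 24 h, 7 and 11 passed without 8CA library A or B, 15 without 8AA library A and 9 without 8AA library B. At 8 h under upper-quartile scaling, 19 members were lower and 0 higher beside 2.70% and 3.88% of all genes.

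FEN1 showed the largest differences between the compounds at 24 h in both lines. The log2 difference, 8AA minus 8CA, was 0.42 ± 0.051 (adjusted p = 3.6e-05) in MV4-11 and 0.67 ± 0.058 (adjusted p = 2.79e-07, 0.55 and 0.77 without A and B) in KG-1a. At 8 h it was −0.18 ± 0.050 (adjusted p = 0.0413) in MV4-11 and 0.29 ± 0.057 (adjusted p = 0.00129) in KG-1a, below 8CA in one line and above it in the other. GINS1 was also higher with 8AA at 24 h in both lines (0.40 ± 0.069, adjusted p = 0.000741 and 0.44 ± 0.055, adjusted p = 1.27e-05, 0.46 and 0.42 without A and B), as were GMNN, GINS4, RPA3 and LIG1, while CDT1 and RFC1 were lower in both (CDT1 −0.36 and −0.25, RFC1 −0.26 and −0.33). The KG-1a values without 8AA library A and B were −0.37 and −0.15 for CDT1 and −0.38 and −0.28 for RFC1.

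In KG-1a the members differed between the compounds about as often as all genes did. At 24 h, 8 members were lower with 8AA and 12 higher, against 21.7% and 20.3% of all genes, and the median was 0.045. The total of 20 was 22 without 8AA library A and 28 without 8AA library B, with medians of −0.010 and 0.087, and was 14 and 13 without 8CA library A or B. Scaled by library size only, 6 were lower and 19 higher beside 15.7% and 27.5% of all genes. MCM6 (−0.41 ± 0.047, adjusted p = 5.01e-06, −0.47 and −0.36 without A and B), POLA1 (−0.46 ± 0.051, adjusted p = 3.92e-06, −0.42 and −0.50 without A and B) and TIPIN (−0.42 ± 0.081, adjusted p = 0.000712, −0.54 and −0.32 without A and B) had the largest differences on the side of lower levels with 8AA. At 8 h, 4 members were lower with 8AA and 9 higher, against 15.8% and 14.7% of all genes, with a median of 0.059. This total of 13 was 7 and 8 without 8CA library A or B and 8 and 6 without 8AA library A or B. DBF4, MCM10, POLA1 and TIPIN were below 8CA at both times, and PCNA, RFC2, LIG1, FEN1 and TIMELESS above it. MCM10 and TIPIN were below 8CA at 8 h in both lines, and ORC1, MCM3, PCNA, RFC2 and FEN1 were below it in MV4-11 and above it in KG-1a.

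A difference that missed the threshold was not thereby shown to be absent. The median half-width of the 95% interval of a member's log2 difference between the compounds was 0.12 in each of the 4 tests. MCM7, for example, differed by 0.08 (95% interval −0.02 to 0.19) in MV4-11 at 24 h.

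**Figure D3:**
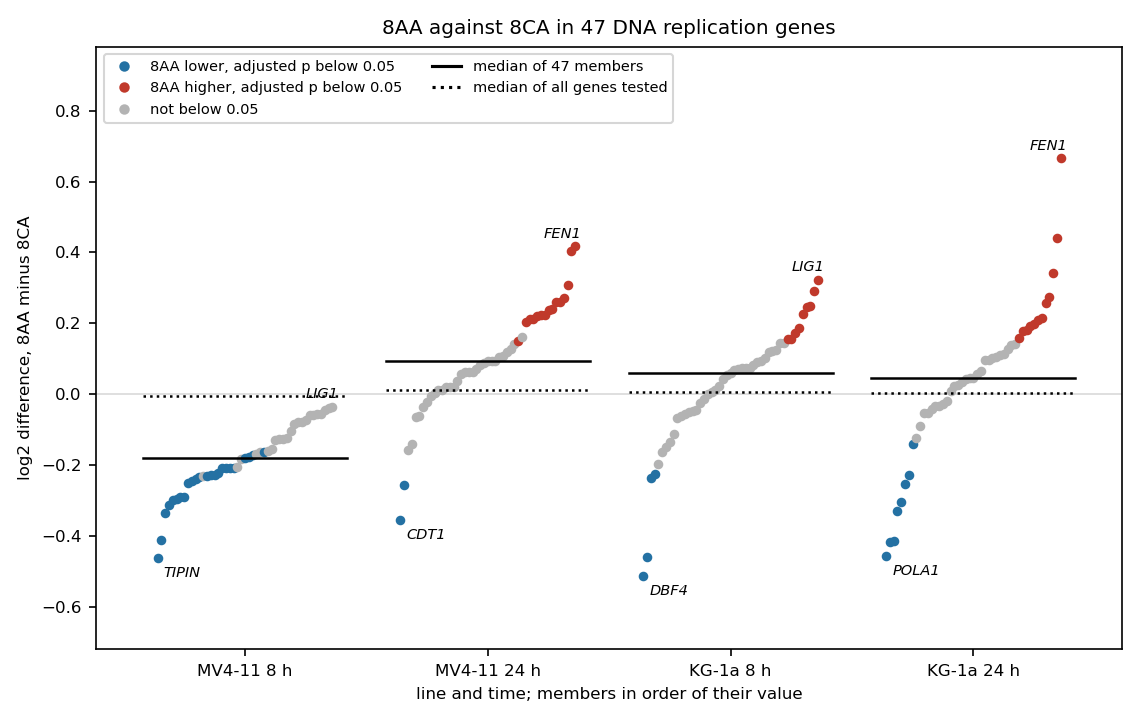
Log2 difference between 8AA and 8CA (8AA minus 8CA, edgeR) of the 47 members in each line and time, members in order of their value; coloured points passed an adjusted p of 0.05, the solid line is the median of the members and the dotted line that of all genes tested. All 47 points lie below 0 in MV4-11 at 8 h, where the median is −0.18, and the median is 0.093 at 24 h.

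The change at 24 h minus the change at 8 h was tested in the same fits. With 8CA in MV4-11 the value was negative for all 47 members, 38 past the threshold and 0 in the other direction (0 at an unadjusted p under 0.05, 37 in all by DESeq2), against 9.83% and 6.48% of all genes, with a median of −0.43. The deepest shifts were those of RPA3 (−0.79 ± 0.100, adjusted p = 0.000104), GINS2 (−0.69) and GINS4 (−0.69). RPA3 was at 32.4 and 31.4 CPM untreated, 35.7 and 32.4 after 8CA and 31.5 and 32.8 after 8AA at 8 h, with the 3 groups close together, so its fall was a late one. With 8AA in MV4-11, where many members had fallen by 8 h, 5 moved further down and 0 up (0 at an unadjusted p under 0.05, 4 in all by DESeq2, and 8 in all by library size only, 8 by the upper quartile and 10 with no filter), against 2.12% and 2.51% of all genes, with a median of −0.11. These were GINS4, POLA1, PRIM2, RPA3 and TIMELESS. Without untreated library A or B at 8 h, 3 and 2 passed, without 8AA library B at 8 h 3, without untreated library A or B at 24 h 3 and 2, and without 8AA library A at 24 h 2. In KG-1a with 8CA, 21 members moved down and 2 up, CDT1 (0.49 ± 0.103, adjusted p = 0.00322) and RFC1 (0.20 ± 0.068, adjusted p = 0.0485), against 12.7% and 11.2% of all genes. The total of 23 was 15 without 8CA library A at 8 h, and 16 to 23 without each of the other 7 libraries. With 8AA in KG-1a, 19 moved down and 0 up by edgeR (0 at an unadjusted p under 0.05, 17 in all by DESeq2), against 10.7% and 7.64% of all genes. This count was 29 and 24 without 8AA library A or B at 24 h, and 13 to 19 without each of the other 6. The medians in KG-1a were −0.21 with 8CA and −0.20 with 8AA.

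Untreated cells changed little between the times. In MV4-11, 0 members were lower at 24 h than at 8 h and 1 was higher, POLA1 (0.21 ± 0.056, adjusted p = 0.0408), against 2.16% and 3.38% of all genes. At an unadjusted p under 0.05 these counts were 0 and 12, and DESeq2 called 0. In KG-1a, 0 were called by edgeR (0 lower and 3 higher at an unadjusted p under 0.05, 0 by DESeq2), against 1.97% and 2.49% of all genes.

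The lines were compared by the difference of their changes in 1 model over all 24 libraries, with 14055 genes tested. At 24 h with 8CA, 17 members had a lower change in MV4-11 than in KG-1a and 0 a higher one (1 at an unadjusted p under 0.05, 15 in all by DESeq2), against 5.44% and 5.76% of all genes, with a median of −0.21. The largest difference was that of MCM6 (−0.61 ± 0.067, adjusted p = 1.2e-06), followed by CDT1 (−0.49 ± 0.096, adjusted p = 0.00135) and RFC5 (−0.45 ± 0.071, adjusted p = 0.000136). With 1 library left out the count fell to between 7 and 12 for each of the 8 libraries, lowest without untreated KG-1a library A. At 24 h with 8AA, 17 members had a lower change in MV4-11 and 1 a higher one, against 8.51% and 13.8% of all genes, with a median of −0.14. The 1 in the other direction was POLD2 (0.59 ± 0.087, adjusted p = 2.04e-05, 0.69 and 0.43 without A and B), and CDT1 (−0.59), RFC5 (−0.49) and PRIM2 (−0.46) led the rest. Without 8AA library A and B of KG-1a these were −0.47 and −0.77 for CDT1, −0.53 and −0.52 for RFC5 and −0.47 and −0.53 for PRIM2. The total of 18 was 17 and 31 without 8AA library A or B of KG-1a, 11 without untreated library A of KG-1a, and 13 to 15 without each of the other 5.

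At 8 h with 8AA, 22 members had a lower change in MV4-11 than in KG-1a and 0 a higher one (1 at an unadjusted p under 0.05, 23 in all by DESeq2), against 3.6% and 7.49% of all genes, with a median of −0.24. FEN1 differed most (−0.57 ± 0.080, adjusted p = 4.78e-05), followed by ORC6 (−0.44) and ORC1 (−0.42), while TIPIN differed by 0.00 (95% interval −0.22 to 0.21). The count was 13 without 8AA library A of MV4-11, 12 without untreated library B of KG-1a, 12 without 8AA library A of KG-1a, and 15 to 19 without each of the other 5. At 8 h with 8CA, 0 members differed between the lines by edgeR (2 lower and 0 higher at an unadjusted p under 0.05, 0 by DESeq2), against 0.726% and 0.427% of all genes.

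**Figure D4:**
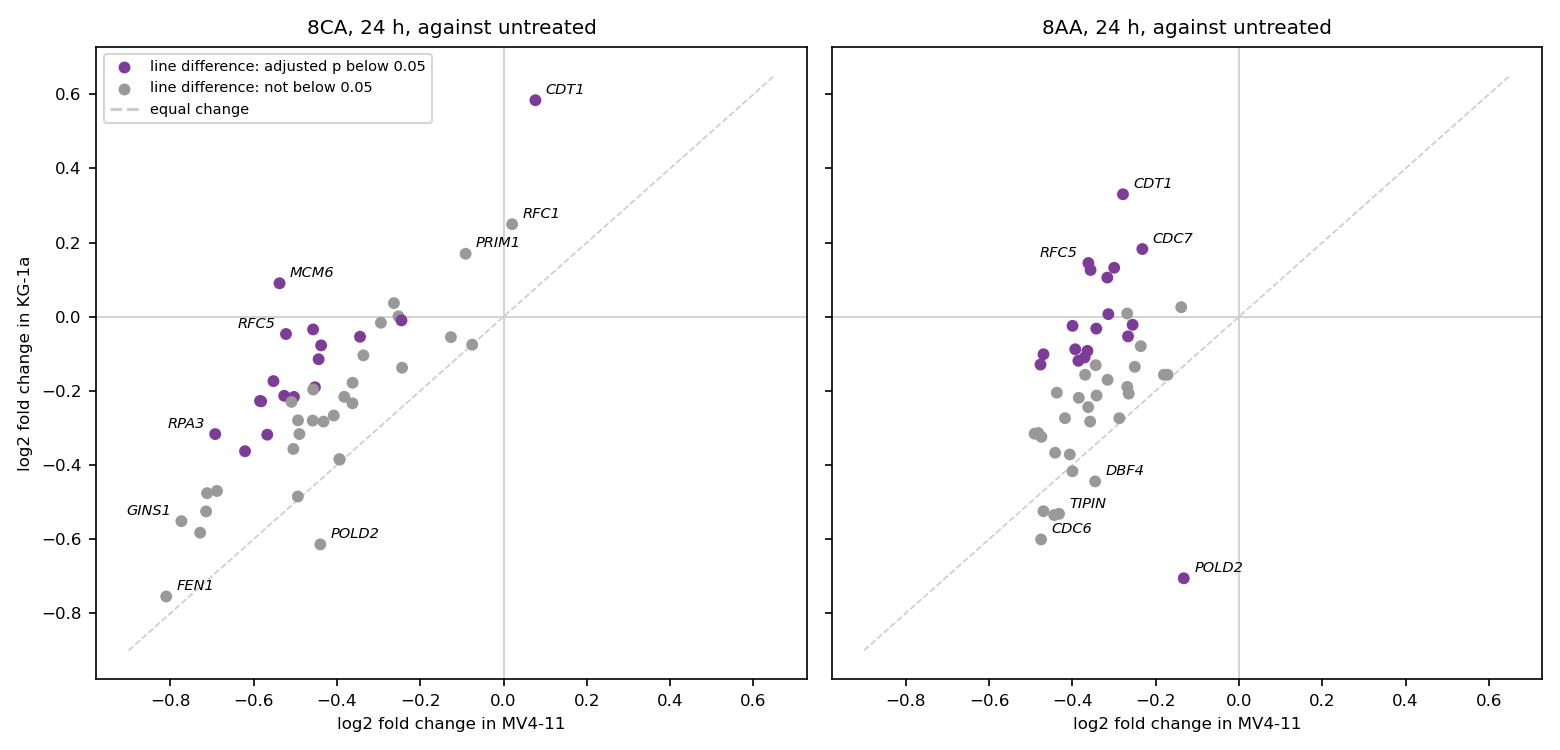
Log2 fold change of each member against untreated cells at 24 h in MV4-11 (horizontal) and KG-1a (vertical), for 8CA and 8AA; purple points had a line difference at an adjusted p below 0.05, and the dashed line marks equal change. Purple points number 17 for 8CA and 18 for 8AA, most of them above the dashed line, with POLD2 below it for 8AA.

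Levels were compared between genes per length, as CPM divided by the deposited exon length in kilobases (RPKM), over the 4 untreated libraries of each line. MCM4 was first in both lines, at a mean of 224 RPKM (212 to 234) in MV4-11 and 220 RPKM (210 to 228) in KG-1a. In MV4-11 it was followed by PCNA (201), MCM7 (189) and MCM6 (136), and its lowest library stood above the highest of PCNA, which reached 207 RPKM. In KG-1a it was followed by MCM3 (167), FEN1 (153) and MCM2 (146). PRIM2 was lowest in both, at 8.39 and 11.7 RPKM, next to DNA2 at 9.48 and 12.2 RPKM.

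Before treatment the lines already differed in many members, as they did in most genes. In untreated cells, 21 members were lower and 14 higher in MV4-11 than in KG-1a at 24 h, against 41% and 41% of the 14055 genes tested, and 22 and 14 at 8 h, against 42.1% and 40.1%. PRIM1 (1.76 at 24 h and 1.56 at 8 h), MCM7 (1.56 and 1.57), RNASEH2A (1.35 and 1.28) and TIMELESS (1.31 and 1.26) were higher in MV4-11 on the log2 scale. FEN1 (−0.79 and −0.71), POLA2 (−0.73 and −0.66) and RFC3 (−0.68 and −0.89) were lower. The same 14 members were higher at both times, and 19 were lower at both, with no share of all genes computed for both times together.

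Other genes of the cycle were read from lists chosen for their function. At 24 h the shares of all genes that fell and rose were 22.7% and 21.2% after 8CA and 15.3% and 13.9% after 8AA in MV4-11, and 24% and 23.4%, and 26.6% and 25.4%, in KG-1a. Of 25 further replication genes, 14 fell and 1 rose with 8CA and 13 and 1 with 8AA in MV4-11 at 24 h, and 11 and 2, and 8 and 4, in KG-1a. Their medians were −0.18 and −0.21 in MV4-11 and −0.043 and −0.055 in KG-1a, nearer to 0 than those of the members. DSCC1, a subunit of an alternative clamp loader, was lower in each of the 4 (−0.58, −0.45, −0.41 and −0.49, the last −0.44 and −0.55 without A and B). POLD4, the smallest subunit of polymerase delta, stood out in the other direction with 0.68 ± 0.097 (adjusted p = 0.000104) in MV4-11 with 8AA at 8 h. Of 17 E2F and RB regulators, 11 fell and 1 rose with 8CA and 10 fell with 8AA in MV4-11 at 24 h, and 8 and 1, and 10 and 4, did so in KG-1a. Cyclin E1 (CCNE1), which drives entry into S phase, had the largest fall in KG-1a, −1.09 ± 0.098 (adjusted p = 3.92e-07) with 8CA and −1.02 ± 0.096 (adjusted p = 3.99e-07, −1.15 and −0.92 without A and B) with 8AA, and −0.88 and −0.49 in MV4-11. E2F1 (−0.70, −0.36, −0.39 and −0.33) and its partner TFDP1 (−0.55, −0.35, −0.53 and −0.60) were lower in each comparison at 24 h. With 8AA in KG-1a, E2F1 was at −0.46 and −0.21 and TFDP1 at −0.62 and −0.59 without A and B.

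At 8 h with 8AA, 12 of these 17 regulators fell and 1 rose in MV4-11, and 6 fell and 6 rose in KG-1a, beside 15.6% and 13.6%, and 18% and 16.7%, of all genes. E2F5 fell most there (−0.68 ± 0.075, adjusted p = 7.35e-06). Of 10 S-phase checkpoint genes, 5 fell and 1 rose with 8CA and 3 fell with 8AA in MV4-11 at 24 h, and 4 and 1, and 3 and 1, did so in KG-1a. CDC25A, the phosphatase that activates CDK2, was lower in all 4 (−0.77, −0.52, −0.55 and −0.49, the last −0.53 and −0.46 without A and B) and had fallen by 8 h in MV4-11 (−0.44 ± 0.054, adjusted p = 0.000196 with 8CA and −0.70 ± 0.055, adjusted p = 6.93e-07 with 8AA). ATR, the kinase that senses stalled forks, gave the largest fall of the list with 8AA in KG-1a (−0.62 ± 0.061, adjusted p = 5.91e-07, −0.53 and −0.72 without A and B at 24 h). Of 12 mitotic genes, 12 fell with each drug in MV4-11 at 24 h, 9 fell and 1 rose with 8CA in KG-1a, and 3 fell and 3 rose with 8AA in KG-1a. With 8AA in KG-1a at 24 h the shares that fell of the mitotic, checkpoint and further replication genes were thus near that of all genes. MKI67, the proliferation marker, was at 0.56 ± 0.041 (adjusted p = 3.26e-08, 0.59 and 0.52 without A and B) with 8AA and 0.13 ± 0.041 (adjusted p = 0.0193) with 8CA in KG-1a, against −0.34 and −0.24 in MV4-11. At 8 h the mitotic genes with 8AA fell in 2 cases and rose in 1 in MV4-11, and fell in 8 in KG-1a. Without 8AA library A or B of KG-1a at 24 h, the counts lower and higher there were 10 and 4, or 9 and 2, for the further replication genes, 10 and 5, or 12 and 4, for the regulators, 2 and 1, or 5 and 0, for the checkpoint genes, and 3 and 3, or 1 and 4, for the mitotic genes. The part of the cell cycle in the members' changes was not tested.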

How the data were processed

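RNA-seq was run on 24 libraries of the MV4-11 and KG-1a lines. The authors deposited raw counts per gene, 1 column per library, with no normalization. The submitters' processing notes name Trimmomatic, STAR 2.6.0, HTSeq 0.11.1 and edgeR and the builds hg19 and hg38, with no role. The annotation and strand setting were not given in the sources used here. With 1 of the 47 members listed within 1000 bases of its place in GENCODE 29 (GRCh38), no deposited coordinates were printed.

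Genes were kept by filterByExpr (minimum count 10), which left 12800 in MV4-11 and 12711 in KG-1a. Counts were scaled by the trimmed mean of M-values (TMM), and each line's 12 libraries were fitted in 1 quasi-likelihood model (edgeR 4.0.16, R 4.3.3). Line differences came from a fit of all 24 libraries and 14055 genes. Adjusted p is Benjamini-Hochberg over all genes tested, with a threshold of 0.05. CPM and RPKM were computed here from the deposited counts and gene lengths. The median standard error of a member's log2 fold change came to 0.055 for MV4-11 and 0.058 for KG-1a.

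The members and gene lists were chosen with earlier results of these data known. Values in every library were given, in each role, for the called member with the largest change, for members called in opposite directions at 24 h, and for PCNA and MCM2. DBF4, TIPIN and further values at 8 h were named after their values were seen. Outside the members, the genes named were called in all 4 comparisons at 24 h or had a large change in a comparison, and they are not a full list.

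Alternatives were other scalings, no filter, the Wald test of DESeq2 1.42.0, fits of all 24 libraries or of the 4 compared, a block on the letter of the library, and each library left out. When 1 library of a pair is left out, the lone one is assumed to vary like the other groups. On simulated counts for the 24 h comparisons (12656, 12642, 12522 and 12533 genes for MV4-11 with 8CA and 8AA and KG-1a with 8CA and 8AA), 84, 81, 91 and 85% of 100 genes changed 2-fold and 57, 59, 64 and 79% of 100 changed 1.33-fold were recovered. Of the unchanged genes, 13, 11, 14 and 17 were called falsely. All groups of a line were simulated from its untreated 24 h means with 1 spread per gene, and no other genes were changed. Far more genes were called in the data, and the uneven KG-1a pair with 8AA was not reproduced. These shares therefore do not give the recovery in the data. Figures were drawn with matplotlib 3.10.9 in Python 3.11.15.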

Additional observations from a re-analysis of the deposited data

Results flagged for a closer look

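The change of a member was tested against its change at the other time, in the same line and with the same drug, and each count here was singled out by that test of the difference. With 8CA, 38 members passed in MV4-11, against 9.83% of all genes lower and 6.48% higher, and 23 in KG-1a, against 12.7% and 11.2%. With 8AA, 5 passed in MV4-11 (2 to 5 with 1 library left out), against 2.12% and 2.51% of all genes, and 19 in KG-1a (13 to 29), against 10.7% and 7.64%.

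The change of a member was also tested between the lines. It differed for 17 members with 8CA at 24 h (7 to 12 with 1 library left out), against 5.44% and 5.76% of all genes. With 8AA it differed for 18 at 24 h (11 to 31), against 8.51% and 13.8%, and for 22 at 8 h (12 to 19), against 3.6% and 7.49%.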

How the results depend on the processing

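With 2 libraries a group the interval of a log2 difference between the compounds was about 0.12 to either side, so smaller differences could be missed. No call of a single member against untreated cells changed sign in any alternative. Of these checks of single calls, 1514 kept the call and 94 lost it under other scalings, filters, tests or fits, and 674 kept it and 130 lost it with 1 library left out. Of the counts and medians, 256 stayed within their limits and 50 moved under the former, and 148 stayed and 60 moved under the latter. The cause of these shifts was not tested.

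Scaled by library size only, the members higher were 1 with 8CA at 24 h, 4 with 8CA at 8 h and 1 with 8AA at 8 h in MV4-11, and 4 with 8CA and 6 with 8AA at 24 h in KG-1a, where 16 were lower with 8AA. The medians were then −0.41 (8CA, 24 h), −0.31 (8AA, 24 h), 0.014 (8CA, 8 h) and −0.16 (8AA, 8 h) in MV4-11, and −0.19 (8CA, 24 h), −0.062 (8AA, 24 h) and 0.065 (8AA, 8 h) in KG-1a. Those of 8AA minus 8CA in KG-1a were 0.11 at 24 h and 0.084 at 8 h. The shift in time with 8AA in MV4-11 was called for 8 members, and untreated 24 h against 8 h for 3 in MV4-11 and 2 in KG-1a. By the upper quartile, 1 member was higher with 8AA at 8 h in MV4-11, 4 with 8CA and 6 with 8AA at 24 h in KG-1a, the medians were −0.42, −0.32, 0.0075 and −0.16 in the same order in MV4-11 and −0.18 and −0.083 at 24 h in KG-1a, and the shift in time with 8AA in MV4-11 was called for 8 and the untreated times in KG-1a for 1. With the size factors of DESeq2 the median with 8AA at 8 h in MV4-11 was −0.21.

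By the Wald test of DESeq2, 1 member was higher with 8CA at 8 h in MV4-11 and 9 with 8AA at 8 h in KG-1a, the median with 8AA at 8 h in MV4-11 was −0.21, and untreated times in MV4-11 gave 0. With no filter, the shift in time with 8AA in MV4-11 was called for 10 members and the untreated times for 2 in each line. In the fit of all 24 libraries, 1 member was higher with 8AA at 8 h in MV4-11, with a median of −0.17. In fits of the 4 libraries compared, 3 were lower and 1 higher with 8CA at 8 h in MV4-11, and in KG-1a 4 were higher at 24 h after 8CA, 16 lower and 1 higher at 24 h after 8AA, and 1 higher at 8 h after 8CA.

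The letters A and B are shared by all groups. Deviations of same-letter libraries from their group means correlated between −0.13 and 0.26 over genes, and between 0.20 and 0.26 among the groups of MV4-11 at 8 h. With 2 pairs a comparison and no label that ties a letter to a shared culture or day, the letters were taken as names. With the letter as a replicate block, 4 members were higher with 8CA and 1 with 8AA at 8 h in MV4-11, the shift in time with 8AA in MV4-11 was called for 14, and the untreated times for 7 in MV4-11 and 2 in KG-1a.

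With each library left out in turn, MV4-11 at 8 h gave 3 to 4 lower and 0 to 1 higher with 8CA, with a median from −0.0505 to −0.0077, and a median from −0.20 to −0.18 with 8AA. The median in KG-1a at 24 h ran from −0.24 to −0.20 with 8CA and from −0.22 to −0.13 with 8AA, where 1 to 3 were higher. In KG-1a at 8 h with 8AA, 3 to 4 were lower and 6 to 12 higher, with a median from 0.013 to 0.070. Between the compounds, 7 to 15 members (median 0.063 to 0.11) were called in MV4-11 at 24 h and 8 to 14 (median −0.18 to −0.16) at 8 h, and 13 to 28 in KG-1a at 24 h and 6 to 8 (median 0.037 to 0.059) at 8 h. The shift in time was called for 2 to 5 with 8AA in MV4-11 and for 15 to 23 with 8CA and 13 to 29 with 8AA in KG-1a, and the untreated times for 0 in MV4-11. Between the lines, 7 to 12 were called with 8CA and 11 to 31 with 8AA at 24 h and 12 to 19 with 8AA at 8 h. Of the calls against untreated cells at 24 h, 2 of 42 (8CA) and 7 of 45 (8AA) in MV4-11 and 8 of 32 (8CA) in KG-1a were lost without at least 1 library, and 8 of 26 at 8 h with 8AA in MV4-11.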
